A study of Apis mellifera with 12 samples.

Results

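The comparison set the antennae of defender workers against those of nurse workers in the honey bee, Apis mellifera. It used 6 of the study's 12 RNA libraries, 3 labelled Defender and 3 labelled Nurse, chosen by their labels alone. The other 6 libraries are 3 from foragers and 3 from newly emerged workers, and they served to estimate the spread and as further points of reference. All 12 were made from total RNA of antennae and read on a DNBSEQ instrument, and no group carried a treatment, a mutation or a transgene. Nurses are workers that feed brood in the nest, foragers collect food outside it, and newly emerged workers have just left the brood cell. The sources used here do not say what a defender had done when it was taken. Nor do they give the age or colony of any bee, or how many bees went into a library, so task and age cannot be told apart. The series title names division of labour among workers as its subject, and the question addressed here is how the antennal transcripts of colony defence and of brood care differ.

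The antenna is the main organ of smell of the bee. Odours dissolve in the fluid of hair-like sensilla, where odorant binding proteins and chemosensory proteins are abundant, and reach odorant receptors on sensory neurons. Each such receptor works together with a shared co-receptor, which in the honey bee is the product of Or2. The antenna also holds cuticle, which goes on hardening after emergence, muscle in its basal segments, hemolymph with its blood cells, nerve and glia. Guarding and attack in bees depend on odours, among them the alarm pheromone and the odour of nestmates, while nurses respond to brood and queen pheromones.

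Counts per library came to 79995802, 119703929 and 106115595 in defenders, and to 93601572, 76019071 and 96490617 in nurses. Of 12319 genes in the table, 11271 passed the filter on low counts and were tested. Levels are in CPM, the count as a share of the library total after scaling for library composition, and are not corrected for gene length, so only the same gene is compared between groups. In a principal component analysis of the 12 libraries, the second component (11.9% of the variance) placed defenders at 13.2 to 22.8 and nurses at -39.8 to -9.24, with nurse library 3 farthest out. Libraries of 1 group differed by far more than counting error, and the chi-square averaged over genes was 54.6 to 75.9 between defender libraries and 95.5 to 179 between nurse libraries. The sources used here do not say whether the 3 libraries of a group came from separate bees or colonies, so every p-value rests on a spread that may be technical. Genes typical of antennae were well detected in both groups. Obp1, which encodes an antennal odorant binding protein, averaged 17419 ± 1099.7 CPM in defenders and 18315 ± 424 CPM in nurses (SD, n = 3 each), and Or11, an antennal odorant receptor, 40.6 ± 1.11 and 45.1 ± 1.47 CPM in defenders and nurses.

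Defender antennae had lower levels than nurse antennae of 9 of 25 cuticle protein genes, among them Apd-1, Apd-2 and CPR19, of 3 of 9 royal jelly protein genes and of 3 of 5 genes of vitellogenin and hexamerins. They had higher levels of the odorant co-receptor gene Or2, of 2 alpha-glucosidase genes, and of 1 cuticle gene (CPR3) and 1 royal jelly gene (Mrjp9). In edgeR's quasi-likelihood test with Benjamini-Hochberg (BH) adjustment over all genes tested, 872 of 11271 genes (7.74%) passed at an adjusted p under 0.05 and are called below. Of these, 522 were higher in defenders (4.63% of genes tested) and 350 were lower (3.11%). The difference was at least 2-fold for 114 of the higher and 102 of the lower genes. In 869 of the 872 called genes the 3 libraries of defenders and the 3 of nurses did not overlap, which was also the case for 38% of all genes tested. The split between higher and lower calls depended on scaling, since 59.9% of calls were higher under TMM scaling and 41.1% under upper-quartile scaling. The median over all genes tested was a log2 fold change of -0.01 under the first and -0.09 under the second. Of the called genes 48 have a symbol in place of a LOC identifier, as do 469 of the genes tested. Of these 48, 41 are members of the 28 gene lists used below. Calls among the members of a list are to be read beside the 7.74% of all genes tested.

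**Figure D1:**
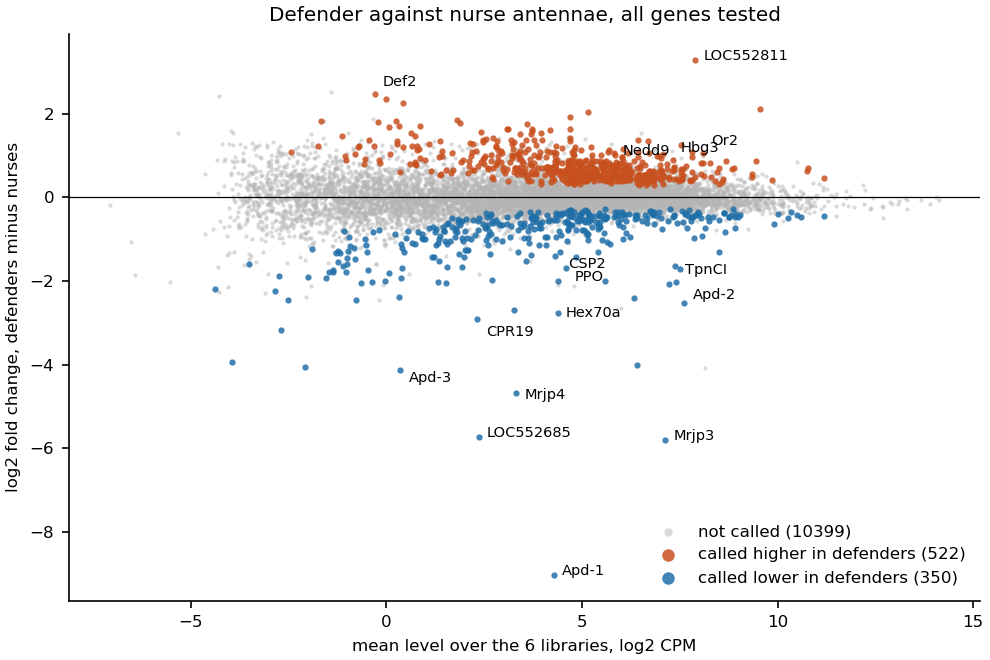
Each point is 1 of 11271 genes tested, with its mean level over the 6 libraries on the horizontal axis (log2 CPM) and the log2 fold change, defenders minus nurses, on the vertical axis. The 522 orange genes were called higher and the 350 blue genes lower in defenders, and the lowest fold changes belong to Apd-1, Mrjp3 and LOC552685.

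The number of calls depended on single libraries. Without defender library 1, 2 or 3 it was 289, 121 and 99, and without nurse library 1, 2 or 3 it was 1428, 156 and 309. A smaller set of 87 genes (0.772% of genes tested, 33 higher and 54 lower in defenders) was called in the full fit and in each of the 6 fits that left out 1 library. Their median absolute log2 fold change was 1.25, against 0.66 for the other called genes. With a symbol this set holds Apd-1, Apd-2, Apd-3, CPR19, Mrjp4, PPO, CSP2 and NLG-3, all lower in defenders, and Hbg3, which was higher. Of 48 called genes picked by the naming rule, 17 were called in all 6 of these fits. A fit on the 6 defender and nurse libraries alone lost 16 of the 48, namely AGLU2, Br-c, Def2, EphR, Foxp, Gpdh, Hex110, Hex70a, LOC100576135, LOC726251, Mrjp2, Nedd9, Or2, Para, TpnCIIa and Vg. Below, the libraries whose removal ended a call are given beside the gene, with the highest adjusted p of the 6 fits.

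**Figure D2:**
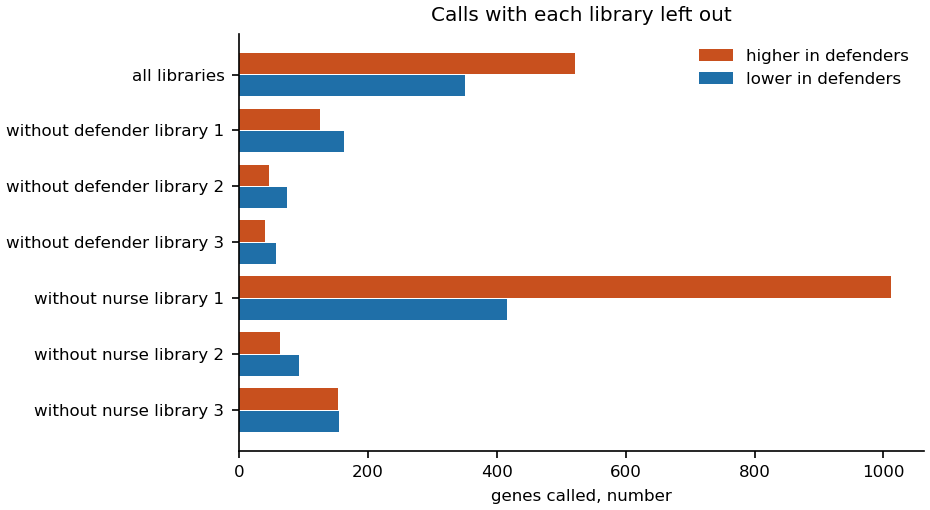
Bars show the number of genes called higher (orange) and lower (blue) in defenders than in nurses, with all libraries and with each library left out in turn. The count lies between 99 without defender library 3 and 1428 without nurse library 1, against 872 with all libraries.

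Cuticle genes formed the list with the most called members. Of 25 tested genes, 9 were lower and 1 was higher in defenders (40% called, beside 7.74% of all genes). In 14 of the 25 the libraries did not overlap, beside 38% of all genes. The median log2 fold change was -0.51, beside -0.01 over all genes. The apidermins are small cuticle proteins known from bees and related insects. Apd-1 was at 0.152, 0.0164 and 0.0759 CPM in defenders, from 12, 2 and 8 counts, against 31.7, 58.1 and 26.8 CPM in nurses, from 2960, 4296 and 2566 counts. Its transcript was thus close to the limit of detection in every defender library and plain in every nurse library (log2 fold change -9.03, SE 0.68, adjusted p = 8.72e-05). The related Apd-3 was at 0.0761, 0.188 and 0.133 CPM in defenders and 2.21, 3.48 and 1.56 CPM in nurses (log2 fold change -4.12, SE 0.45, adjusted p = 0.000873). Apd-2 stayed well detected in both groups, at 43.5, 78.8 and 51.3 CPM in defenders and 359, 253 and 391 CPM in nurses (log2 fold change -2.53, SE 0.29, adjusted p = 0.0011). These 3 genes lie side by side in the Amel_HAv3.1 assembly, and reads that fit more than 1 of them could have been assigned to either, which the sources used here do not settle. A separate entry spelled apd-3 was at 0.175 ± 0.0551 CPM in defenders and 0.380 ± 0.167 CPM in nurses and did not pass (adjusted p = 0.271).

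Chitin-binding cuticle proteins of the CPR and Cpap3 families were also among the genes that were lower in defenders. CPR19 was at 0.837, 0.909 and 1.75 CPM in defenders, against 9.05, 12.6 and 4.89 CPM in nurses (log2 fold change -2.91, SE 0.39, adjusted p = 0.00345). Cpap3-b was at 14.3, 8.28 and 9.07 CPM in defenders and 18.7, 26.6 and 24.2 CPM in nurses, so that the highest defender library came near the lowest nurse library (log2 fold change -1.14, SE 0.22, adjusted p = 0.0162). Its call was lost without defender library 2 or 3 or nurse library 2 (adjusted p up to 0.0784). CPR6, CPR11, CPR28 and Cpap3-d, which the naming rule did not pick and which were added after their values were seen, complete the genes that were lower, with log2 fold changes of -1.93, -1.16, -0.70 and -0.84. CPR3 went the other way, with 118, 97.7 and 113 CPM in defenders against 59.5, 68.9 and 74.2 CPM in nurses. Its log2 fold change of 0.70 (SE 0.17, adjusted p = 0.0299) was not called in any of the 6 fits with a library left out (adjusted p up to 0.107). The number of list members called lower was 4 without defender library 2 or 3 and 5 without nurse library 2. Other members were near equal, such as CPR14 at 546 ± 115 CPM in defenders and 574 ± 136 CPM in nurses (adjusted p = 0.827). Among 6 genes of cuticle tanning and melanization the one called was PPO, described with the blood cell markers below. TyHyd, which encodes tyrosine hydroxylase, was at 447 ± 143 CPM in defenders and 297 ± 43.7 CPM in nurses (adjusted p = 0.196).

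**Figure D3:**
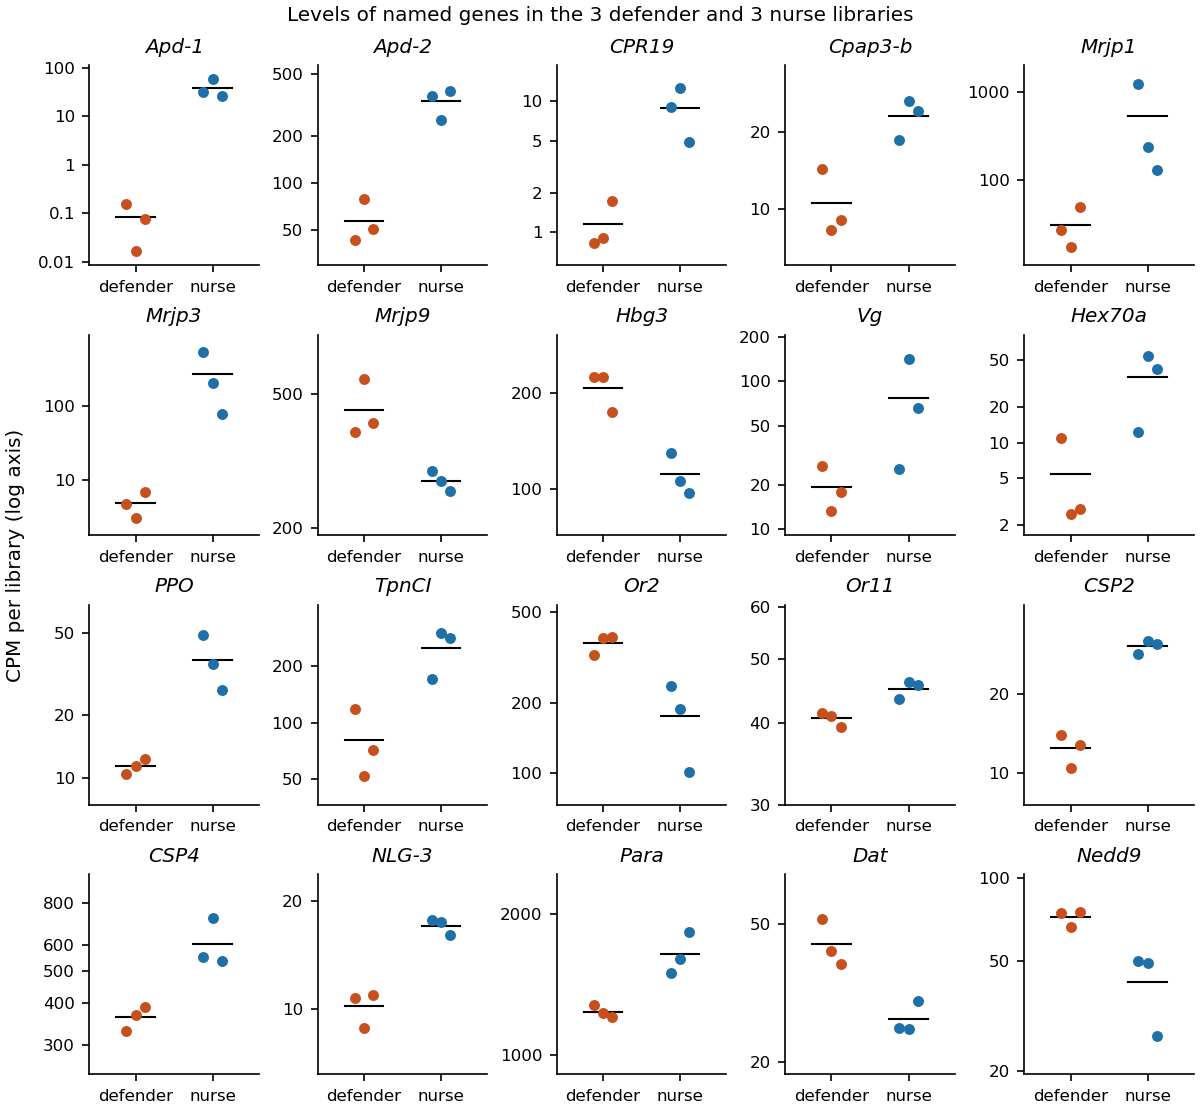
Points are the CPM of 1 library, on log axes that differ between panels, for 20 genes described in the text, with the 3 defender libraries (orange) left of the 3 nurse libraries (blue) and the group mean as a line. In Apd-1, PPO, CSP2 and NLG-3 the groups lie well apart, in Mrjp1 and Vg the nurse libraries spread over most of the axis, and the defenders are higher in Mrjp9, Hbg3, Or2, Dat and Nedd9.

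Of the royal jelly protein genes, Mrjp2, Mrjp3 and Mrjp4 were lower in defender antennae and Mrjp9 was higher, with wide differences between the nurse libraries. Major royal jelly proteins are the chief secreted proteins of the hypopharyngeal glands, which lie in the head and feed the brood. Of 9 tested genes, 3 were lower and 1 was higher in defenders (44.4% called, beside 7.74% of all genes). In 7 of the 9 the libraries did not overlap, beside 38% of all genes, and the median log2 fold change was -2.13. Mrjp3 was at 4.77, 3.06 and 6.95 CPM in defenders, against 545, 205 and 77.7 CPM in nurses (log2 fold change -5.81, SE 1.10, adjusted p = 0.0167). The log2 fold change lay between -6.25 and -4.84 with a library left out, and the call was lost without defender library 1, 2 or 3 (adjusted p up to 0.0754). Mrjp4 was at 0.684, 0.549 and 1.02 CPM in defenders and 36.7, 16.5 and 4.57 CPM in nurses (log2 fold change -4.68, SE 0.67, adjusted p = 0.00552), and between -5.15 and -3.81 with a library left out. Mrjp2 was at 8.96, 4.58 and 16.1 CPM in defenders and 366, 66.3 and 47.2 CPM in nurses (log2 fold change -4.01, SE 1.02, adjusted p = 0.039). Its call was lost whichever of the 6 libraries was left out (adjusted p up to 0.131, log2 fold change -4.57 to -2.52). Without defender library 1, 2 or 3, the list had 1 lower gene, Mrjp4.

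Mrjp1 encodes the most abundant royal jelly protein. It was at 27.3, 17.7 and 50.4 CPM in defenders and 1236, 238 and 132 CPM in nurses, and although the groups did not overlap it missed the threshold (log2 fold change -4.07, SE 1.20, adjusted p = 0.0589, and 0.00504 with DESeq2). Nurse library 1 was the highest and nurse library 3 the lowest of the nurse libraries for Mrjp1, Mrjp2, Mrjp3 and Mrjp4. Summed over Mrjp1 to Mrjp7, the level was 49.4 to 107 CPM in defenders and 294 to 2349.5 CPM in nurses, with 3 of 7 genes called lower. This sum leaves out Hbg3, which was listed with them as a marker of the head glands. Hbg3 went the other way and was called higher, at 208 CPM in defenders and 111 CPM in nurses. In RNA from a whole organ, fewer cells of a type and less RNA per cell cannot be told apart. Mrjp9 belongs to the same family but was higher in defenders, at 384, 554 and 408 CPM, than in nurses, at 295, 276 and 257 CPM (log2 fold change 0.70, SE 0.16, adjusted p = 0.0274). That call was lost without defender library 2 or 3 or nurse library 2 or 3 (adjusted p up to 0.0969). Mrjp8 did not pass, with 52.6 ± 11.2 CPM in defenders and 37.1 ± 13.1 CPM in nurses (adjusted p = 0.229). The royal jelly genes lie in tandem and resemble each other, and the sources used here do not tell how shared reads were counted.

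Alpha-glucosidases split sugars, and Hbg3 encodes the enzyme of this kind that the hypopharyngeal glands secrete into honey. Hbg3 was at 224, 224 and 174 CPM in defenders and 130.2, 106 and 97.6 CPM in nurses, with no overlap (log2 fold change 0.90, SE 0.15, adjusted p = 0.00986). The call held whichever library was left out (adjusted p up to 0.0487). AGLU2, next to Hbg3 in the assembly, was at 93.0, 116 and 104 CPM in defenders and 81.4, 62.3 and 69.5 CPM in nurses (log2 fold change 0.55, SE 0.13, adjusted p = 0.0327). Its call was lost without defender library 2 or 3 or nurse library 2 or 3 (adjusted p up to 0.121), with upper-quartile scaling and in the fit on the 6 libraries alone. The third alpha-glucosidase gene, Hbg2, was at 0.469 ± 0.0830 CPM in defenders and 0.935 ± 0.240 CPM in nurses and did not pass (adjusted p = 0.0682).

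Vg, Hex70a and Hex110, genes of the fat body, and PPO, a gene of blood cells, were lower in defenders. The fat body, the insect counterpart of liver and fat tissue, makes vitellogenin and the hexamerins, which are storage proteins of the blood. Of 5 tested genes of this group, 3 were lower and none was called higher, and the 3 calls were absent in the fit on the 6 libraries alone. Vg, the vitellogenin gene, was at 26.6, 13.3 and 17.9 CPM in defenders and 25.6, 141 and 65.6 CPM in nurses, so nurse library 1 lay within the defender range (log2 fold change -2.01, SE 0.46, adjusted p = 0.0279). Hex70a was at 10.9, 2.49 and 2.72 CPM in defenders and 12.2, 54.1 and 42.4 CPM in nurses (log2 fold change -2.77, SE 0.75, adjusted p = 0.0461). Hex110 was at 4.17, 1.56 and 2.00 CPM in defenders and 4.19, 33.1 and 12.2 CPM in nurses (log2 fold change -2.69, SE 0.64, adjusted p = 0.0302). For all 3 genes, defender library 1 was the highest of its group, nurse library 1 the lowest of its group, and those libraries were nearly equal. The calls of Vg, Hex70a and Hex110 were each lost without defender library 2 or 3 or nurse library 2 or 3, with adjusted p up to 0.104, 0.156 and 0.114, and that of Hex70a also with no filter on low counts. Their log2 fold changes with a library left out ranged from -2.42 to -1.24 for Vg, from -3.81 to -2.36 for Hex70a and from -3.22 to -1.68 for Hex110. The level summed over Vg, Hex70a, HEX70b and Hex110 was 18.3 to 42.8 CPM in defenders and 42.6 to 229 CPM in nurses. HEX70b was not called and was not lower in defenders. Its counts, before scaling, were 85, 107 and 75 in defenders and 51, 77 and 76 in nurses. Of the 5 tested genes of this group, 1 had a log2 fold change above 0, at 0.16. PPO, a prophenoloxidase gene of blood cells whose enzyme starts melanin formation, was at 10.4, 11.5 and 12.3 CPM in defenders and 48.8, 35.2 and 26.4 CPM in nurses (log2 fold change -1.69, SE 0.18, adjusted p = 0.000562). The defender libraries lay close together, and the lowest nurse library was above all of them. The call of PPO held without each library in turn (adjusted p up to 0.0053). Nurse library 1 was thus the highest nurse library for the royal jelly genes and PPO and the lowest for the fat body genes, and the part of other tissues in these differences was not tested.

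Muscle genes gave a mixed result. Troponins are the proteins of the thin filament that make contraction depend on calcium. Of 7 tested genes, 3 troponin C genes were lower in defenders and none was called higher. TpnCI was at 119, 52.0 and 71.8 CPM in defenders and 170.3, 301 and 282 CPM in nurses (log2 fold change -1.64, SE 0.27, adjusted p = 0.00856), and its call was lost without defender library 3 (adjusted p up to 0.0547). TpnCIIb was at 2.21, 2.10 and 3.30 CPM in defenders and 4.78, 6.12 and 4.89 CPM in nurses (log2 fold change -1.05, SE 0.20, adjusted p = 0.0162), a call lost without defender library 1 or 2 or nurse library 2 (adjusted p up to 0.0692). TpnCIIa was at 11.6, 12.7 and 10.5 CPM in defenders and 15.2, 17.8 and 24.7 CPM in nurses (log2 fold change -0.73, SE 0.18, adjusted p = 0.0323), and only the fit without nurse library 1 kept this call (adjusted p up to 0.12). TpnCIIIa was at 569.6 ± 66.8 CPM in defenders and 422 ± 66.0 CPM in nurses and did not pass (adjusted p = 0.0596). The summed level of the 7 troponin genes overlapped between the groups, at 1285 to 1722 CPM in defenders and 1325 to 2056 CPM in nurses. TpnI and TpnT, whose levels did not pass (adjusted p = 0.572 and 0.196), had splice events that differed, described below.

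**Figure D4:**
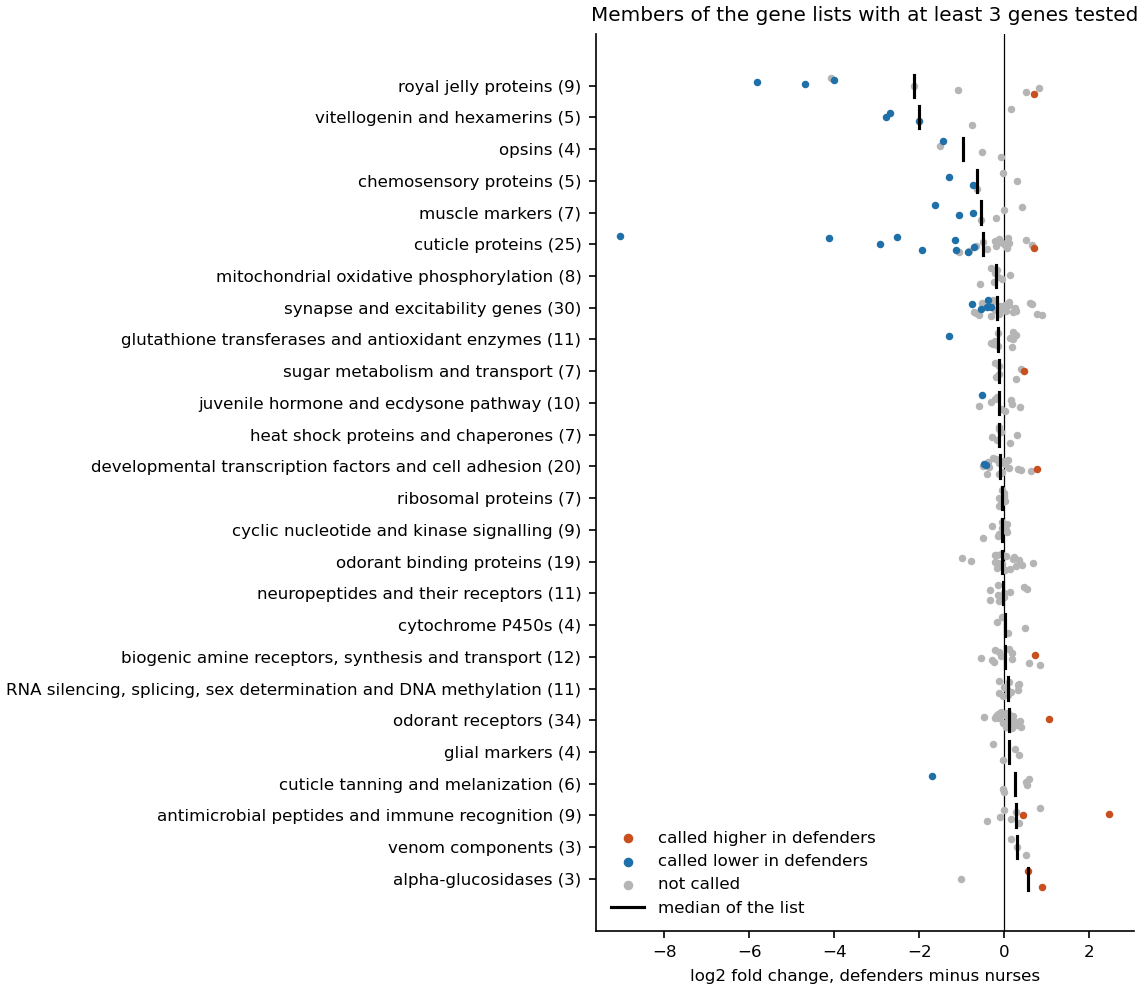
Each point is the log2 fold change, defenders minus nurses, of 1 tested gene in 1 of the lists with at least 3 tested genes, whose number stands after the name, and the black tick is the median of the list. Called genes are orange (higher in defenders) and blue (lower), and lists run from the lowest median, royal jelly proteins at -2.13, to the highest, alpha-glucosidases at 0.55.

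Among the genes of odour reception, the co-receptor stood out from the receptors. Or2, the co-receptor gene, was at 325, 385 and 388 CPM in defenders and 238, 189 and 101 CPM in nurses, with all defender libraries above all nurse libraries (log2 fold change 1.06, SE 0.25, adjusted p = 0.0309). The call was lost in the fit on the 6 libraries alone and without defender library 1, 2 or 3 or nurse library 2 (adjusted p up to 0.104), and the log2 fold change ran from 0.78 without nurse library 3 to 1.34 without nurse library 1. It was the only call, in the full fit, among 34 tested odorant receptor genes, or 2.94% beside 7.74% of all genes. The libraries did not overlap in 8 of the 34, beside 38% of all genes, and 27 had a fold change above 0. Their median log2 fold change was 0.11. Or11, whose product responds to the queen's mandibular pheromone, was at 41.4, 41.0 and 39.3 CPM in defenders and 43.4, 46.2 and 45.6 CPM in nurses. That difference was small and did not pass (log2 fold change -0.15, SE 0.10, adjusted p = 0.363). With DESeq2 the number of receptor genes called higher was 2. The gustatory receptor gene Gr10 was at 3.30, 3.70 and 4.68 CPM in defenders and 6.40, 4.90 and 5.16 CPM in nurses, which did not pass with TMM scaling (log2 fold change -0.49, SE 0.16, adjusted p = 0.0756) but passed with upper-quartile scaling and with DESeq2.

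None of 19 odorant binding protein genes was called, beside 7.74% of all genes, and 4 had libraries that did not overlap, beside 38% of all genes. The smallest p belonged to Obp17, with 261, 205 and 302 CPM in defenders and 438, 366 and 504 CPM in nurses (log2 fold change -0.77, SE 0.25, adjusted p = 0.0746, and 0.0193 with DESeq2). Chemosensory proteins are small soluble carriers found in the sensillum fluid and in other tissues, and 2 of 5 tested genes were lower in defenders. CSP2 was at 14.1, 10.5 and 12.9 CPM in defenders and 28.6, 32.0 and 31.2 CPM in nurses, with no overlap (log2 fold change -1.30, SE 0.16, adjusted p = 0.00193). Its call held without each library in turn (adjusted p up to 0.0133). CSP4 was at 331, 369 and 390.2 CPM in defenders and 552, 723 and 537 CPM in nurses (log2 fold change -0.73, SE 0.17, adjusted p = 0.0287), and its call was lost without defender library 1, 2 or 3 or nurse library 2 (adjusted p up to 0.0935). Of 4 tested cytochrome P450 genes, enzymes of odour and toxin breakdown and of hormone synthesis, none was called, and Cyp314a1 had the smallest p, at 24.8 ± 1.59 CPM in defenders and 27.9 ± 3.50 CPM in nurses (adjusted p = 0.345). Among 11 genes of glutathione transferases and antioxidant enzymes, GstS4, a glutathione transferase of the sigma class, was lower in defenders, at 0.811, 0.778 and 0.750 CPM, than in nurses, at 1.56, 2.06 and 2.17 CPM (log2 fold change -1.31, SE 0.29, adjusted p = 0.0268). Only the fit without nurse library 1 kept this call (adjusted p up to 0.0964). GstS4 and Vg are neighbours in the assembly.

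The called genes of synapse and excitability were lower in defenders. Of 30 tested synapse and excitability genes, 5 were lower and none was higher (16.7% called, beside 7.74% of all genes). In 15 of the 30 the libraries did not overlap, beside 38% of all genes, and the median log2 fold change was -0.17. NLG-3 encodes a neuroligin, an adhesion protein of the postsynaptic side, and was at 10.7, 8.85 and 10.96 CPM in defenders and 17.7, 17.5 and 16.1 CPM in nurses (log2 fold change -0.75, SE 0.11, adjusted p = 0.00489). Cac, named after the calcium channel of Drosophila presynaptic terminals, was at 232, 219 and 209.6 CPM in defenders and 292, 299.6 and 272 CPM in nurses (log2 fold change -0.39, SE 0.07, adjusted p = 0.0161). Para, the voltage-gated sodium channel gene, was at 1279, 1231 and 1209 CPM in defenders and 1498, 1605 and 1837 CPM in nurses (log2 fold change -0.41, SE 0.09, adjusted p = 0.0274). The groups did not overlap in any of these 3 genes, and the differences of Cac and Para were small. NLG-3 was called whichever library was left out. The call of Cac was lost without defender library 2 or 3 or nurse library 2 (adjusted p up to 0.0816), and that of Para in every such fit but the one without nurse library 1 (adjusted p up to 0.104). The remaining 2, brp and Syt1, which the naming rule did not pick, encode a scaffold of the release site and a calcium sensor of synaptic vesicles in Drosophila. They had log2 fold changes of -0.54 and -0.31 (adjusted p = 0.0282 and 0.0459). With 1 library left out the list had 1 lower gene without defender library 2 or 3 or nurse library 2, 2 without nurse library 3 and 3 without defender library 1. Summed over the neuron markers Syt1, Syx1A, Nrx-1 and brp, the level was 1646 to 1935 CPM in defenders and 1828 to 2063 CPM in nurses. The glial marker Eaat-2, a glutamate transporter gene, was at 17.6 ± 1.29 CPM in defenders and 21.0 ± 0.898 CPM in nurses (adjusted p = 0.219), and none of 4 glial genes was called.

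Dopamine, octopamine, tyramine and serotonin modulate arousal and responsiveness in bees. Of 12 tested genes for their receptors, synthesis and transport, 1 was higher in defenders. Dat, the dopamine transporter gene, was at 51.6, 41.7 and 38.4 CPM in defenders and 25.0, 24.9 and 30.0 CPM in nurses, with no overlap (log2 fold change 0.72, SE 0.16, adjusted p = 0.0274). Its call was lost without defender library 1, 2 or 3 or nurse library 2 (adjusted p up to 0.0857). None of 11 neuropeptide and receptor genes was called. Burs, which encodes a subunit of the tanning hormone bursicon, had the smallest p among them, at 4.50, 4.92 and 5.55 CPM in defenders and 4.03, 3.64 and 3.09 CPM in nurses (log2 fold change 0.48, SE 0.16, adjusted p = 0.083, and 0.0399 with DESeq2). None of 9 genes of cyclic nucleotide and kinase signalling passed either, with sGCbeta-3, a guanylyl cyclase gene, at 3.43 ± 0.166 CPM in defenders and 4.85 ± 0.266 CPM in nurses (adjusted p = 0.083). Of 4 opsin genes, the blue opsin gene Blop was lower in defenders, at 1.27, 0.991 and 1.35 CPM, than in nurses, at 4.68, 2.61 and 2.43 CPM (log2 fold change -1.43, SE 0.31, adjusted p = 0.0241), a call lost without defender library 1, 2 or 3 (adjusted p up to 0.0922). Summed opsin levels overlapped, at 16.2 to 21.6 CPM in defenders and 15.8 to 61.9 CPM in nurses, and nurse library 1 was the highest.

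Of 9 tested immune genes, 2 were higher in defenders and none was lower. Def2, a defensin gene, was at 0.748, 2.48 and 0.892 CPM in defenders and 0.408, 0.0812 and 0.240 CPM in nurses, low levels in both (log2 fold change 2.47, SE 0.54, adjusted p = 0.0262). Dl, which encodes a transcription factor of the NF-kappa-B family named after Drosophila dorsal, was at 218, 212 and 218 CPM in defenders and 162, 167 and 147 CPM in nurses (log2 fold change 0.44, SE 0.11, adjusted p = 0.0366). The call of Def2 was lost without defender library 2 or 3 or nurse library 2 or 3 (adjusted p up to 0.0959, log2 fold change 1.71 to 3.05), and that of Dl in every fit but the one without nurse library 1 (adjusted p up to 0.128). Apid1, an apidaecin gene, had no overlap, with 67.4 ± 5.55 CPM in defenders and 37.5 ± 2.32 CPM in nurses, but did not pass (adjusted p = 0.262). Among 7 genes of sugar metabolism and transport, Gpdh, glycerol-3-phosphate dehydrogenase, was higher in defenders, at 144, 143 and 153 CPM, than in nurses, at 119.6, 113 and 87.8 CPM (log2 fold change 0.46, SE 0.11, adjusted p = 0.0323). This call too was kept only without nurse library 1 (adjusted p up to 0.117).

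Hormone and clock genes showed little that passed. Juvenile hormone rises as workers turn to tasks outside the nest, and ecdysone acts through a cascade of nuclear receptors and early genes. Of 10 tested genes of both pathways, Br-c, the ecdysone response gene Broad-complex, was lower in defenders, at 3.04, 2.93 and 2.71 CPM, than in nurses, at 4.12, 4.13 and 4.24 CPM (log2 fold change -0.53, SE 0.12, adjusted p = 0.0303). Each group was tight, yet the call was kept only without nurse library 1 (adjusted p up to 0.11). Kr-h1, an early target of juvenile hormone, was at 35.4, 47.4 and 40.4 CPM in defenders and 44.6, 16.4 and 33.7 CPM in nurses, with overlap (log2 fold change 0.38, SE 0.30, adjusted p = 0.447). Per and Cry2, both clock genes, did not pass (adjusted p = 0.343 and 0.225). Per was at 51.7, 84.9 and 60.9 CPM in defenders and 92.0, 69.4 and 77.1 CPM in nurses.

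Of 20 tested genes of developmental transcription factors and cell adhesion, 1 was higher and 2 were lower in defenders. Nedd9 shares its name with a mammalian adaptor protein of cell adhesion, and was at 74.7, 66.2 and 75.4 CPM in defenders and 50.3, 49.3 and 26.7 CPM in nurses (log2 fold change 0.78, SE 0.21, adjusted p = 0.0425). EphR, an ephrin receptor gene, was at 146, 121 and 137 CPM in defenders and 168, 212 and 178 CPM in nurses (log2 fold change -0.47, SE 0.11, adjusted p = 0.0329). Foxp, a forkhead transcription factor gene, was at 222, 201 and 184 CPM in defenders and 258, 247 and 309.9 CPM in nurses (log2 fold change -0.42, SE 0.11, adjusted p = 0.0452). The groups did not overlap in any of them, and all 3 calls were kept only without nurse library 1, with adjusted p up to 0.131, 0.122 and 0.16. Fem, the feminizer gene of sex determination, was at 106, 119.6 and 116 CPM in defenders and 92.9, 101 and 79.2 CPM in nurses (log2 fold change 0.32, SE 0.11, adjusted p = 0.0836). Dcr-1, the dicer gene of microRNA processing, was at 26.2, 29.4 and 29.2 CPM in defenders and 24.8, 22.3 and 19.1 CPM in nurses (log2 fold change 0.36, SE 0.11, adjusted p = 0.061, and 0.0268 without nurse library 1). Neither Fem nor Dcr-1 passed, and none of the 11 genes of RNA silencing, splicing, sex determination and DNA methylation was called.

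In the full edgeR fit none passed among 7 heat shock and chaperone genes, 7 ribosomal protein genes, 8 genes of oxidative phosphorylation and 3 venom component genes. With DESeq2, 2 genes of oxidative phosphorylation were called lower in defenders, and the replicate block and the fit on the 6 libraries alone called 1 each. The smallest p-values of the chaperone, oxidative phosphorylation and venom lists belonged to Hsc70-5, a mitochondrial chaperone gene (509 ± 9.73 CPM in defenders, 411 ± 39.3 CPM in nurses, adjusted p = 0.0986), to Uqcr11, a gene of the respiratory chain (97.3 ± 17.3 CPM in defenders, 144 ± 36.9 CPM in nurses, adjusted p = 0.0907) and to C1q-VP (57.6 ± 5.06 CPM in defenders, 46.6 ± 5.14 CPM in nurses, adjusted p = 0.214). Melt, which encodes the venom peptide melittin, was at 0.161 to 0.246 CPM in defenders and 0.0858 to 0.199 CPM in nurses, close to 0 in both.

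Most calls, 824 of 872, belong to genes with a LOC identifier, as do most genes tested, 10802 of 11271. The tables used here give no product name for them. Among LOC genes that reached 5 CPM in the higher group mean, the largest increase in defenders was that of LOC552811, with 396, 464 and 439 CPM in defenders and 50.1, 24.6 and 57.3 CPM in nurses (log2 fold change 3.30, SE 0.28, adjusted p = 0.000121). LOC412768 was at 846, 1312 and 1507 CPM in defenders and 316, 153 and 376 CPM in nurses (log2 fold change 2.12, SE 0.39, adjusted p = 0.0134). LOC100576135 was at 61.5, 44.5 and 64.8 CPM in defenders and 16.0, 4.57 and 20.8 CPM in nurses (log2 fold change 2.04, SE 0.40, adjusted p = 0.0177). LOC726251, LOC102656014 (a long non-coding RNA) and LOC100576096 followed, with log2 fold changes of 1.92, 1.86 and 1.79. The groups did not overlap in any of these genes. Calls were lost for LOC412768 without defender library 2 or 3 (adjusted p up to 0.0604), for LOC100576135 without defender library 3 (0.0743), and for LOC726251 in every fit but the one without nurse library 1 (0.108).

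In the other direction, and again from 5 CPM upward, LOC552685 was at 0.101, 0.336 and 0.0949 CPM in defenders and 6.30, 17.9 and 6.07 CPM in nurses (log2 fold change -5.72, SE 0.59, adjusted p = 0.000562). LOC552154 was at 29.2, 24.8 and 23.3 CPM in defenders and 104, 132 and 169.9 CPM in nurses (log2 fold change -2.39, SE 0.16, adjusted p = 5.19e-05). LOC727165, which follows the apidermin genes in the assembly, was at 61.0, 67.03 and 46.3 CPM in defenders and 284, 172 and 269 CPM in nurses (log2 fold change -2.06, SE 0.21, adjusted p = 0.000482). LOC408552, LOC725309 and LOC724838 had log2 fold changes of -2.03, -1.99 and -1.97 (adjusted p = 0.000116, 0.00708 and 0.0295). The first 5 of these 6 calls held without each library in turn, and that of LOC724838 was kept only without nurse library 3 (adjusted p up to 0.105). In newly emerged antennae LOC552685 averaged 425 CPM, LOC552154 725 CPM and LOC727165 1031 CPM, above both defenders and nurses, while LOC724838 averaged 5.41 CPM there, above defenders (2.62 CPM) and below nurses (10.3 CPM).

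Defenders were also set directly against foragers, the workers that collect food outside the nest. With edgeR, 0 of 11271 genes (0%) passed between defenders and foragers. At an unadjusted p under 0.05 there were 2705 genes, the smallest adjusted p was 0.0544, and DESeq2 called 1306 genes. Within edgeR, 876 genes were called when the fit held those 6 libraries alone and 667 with a replicate block, so the count of 0 depended on the model as well as on the tool. The defender libraries enter this comparison as well as the one with nurses, and the values are therefore given side by side. Apd-1 averaged 0.0815 CPM in defenders and 0.0840 CPM in foragers, and CPR19 1.16 CPM in defenders and 1.15 CPM in foragers. PPO averaged 11.4 CPM in defenders and 9.63 CPM in foragers, and CSP2 12.5 CPM in defenders and 11.1 CPM in foragers. Mrjp3 averaged 4.93 CPM in defenders and 2.24 CPM in foragers, and Mrjp9 449 CPM in defenders and 409.8 CPM in foragers. Hbg3 was at 208 CPM in defenders and 390.0 CPM in foragers (log2 fold change -0.91, adjusted p = 0.0544). Or2 was at 366 CPM in defenders and 198 CPM in foragers (log2 fold change 0.88, adjusted p = 0.0737), Nedd9 at 72.1 and 42.5 CPM in defenders and foragers (log2 fold change 0.76, adjusted p = 0.0665), and Fem at 114 and 78.9 CPM in defenders and foragers (log2 fold change 0.53, adjusted p = 0.0544). No difference from foragers passed, and Fem did not pass against nurses either (adjusted p = 0.0836).

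Foragers against newly emerged workers compares group means that hold none of the 6 defender and nurse libraries. Its calls still came from the same fit over all 12 libraries, with a shared estimate of the spread. They are therefore not independent of the calls between defenders and nurses. In this comparison 47.9% of genes were called, 23.6% higher and 24.4% lower in foragers. Of the 350 genes lower in defenders than nurses, 212 (60.6%, and 7.71% of all genes lower in foragers) were also lower in foragers than in newly emerged workers, and 31 were higher there. Apd-2 is an example, at 57.8 CPM in defenders, 65.6 CPM in foragers, 334 CPM in nurses and 3886 CPM in newly emerged workers. Of the 522 genes higher in defenders than nurses, 255 (48.9%, and 9.28% of all genes lower in foragers) were lower in foragers than in newly emerged workers, and 141 (27.0%) were higher there. Or2, Nedd9 and LOC726251 averaged 324, 81.2 and 41.8 CPM in newly emerged workers, levels near those of defenders (366, 72.1 and 41.2 CPM) and above those of foragers (198, 42.5 and 14.5 CPM).

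Splicing was compared through the inclusion level, the fraction of transcripts that hold the longer or included form of an event, in 491 events of 332 genes. An event was taken to differ where the 3 defender and 3 nurse libraries did not overlap and the means differed by at least 0.1. This was so for 114 events (23.2%) in 85 genes, 42 with a higher and 72 with a lower level in defenders. Without the demand on size, 147 events (29.9%) did not overlap. An exact two-sided permutation test with 3 libraries against 3 cannot go below p = 0.1, so no event can pass a threshold of 0.05, and the junction reads behind each level are not in the tables used here, so depth per event is unknown. Differing events were 60 of 288 skipped exons (19 higher, 41 lower in defenders), 29 of 90 mutually exclusive exon pairs (9 higher, 20 lower), 3 of 26 retained introns, and 11 each of 43 alternative 3' and 44 alternative 5' splice sites. The affected stretch was a multiple of 3 bases long in 53.5% of differing and 54.1% of other events. For a mutually exclusive pair this length was that of the first exon alone, so these shares say nothing about the second exon. With 1 library left out, 124 to 162 events differed. Groups with fewer libraries fail to overlap more readily, so these counts tend to lie above 114 and are no measure of stability.

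**Figure D5:**
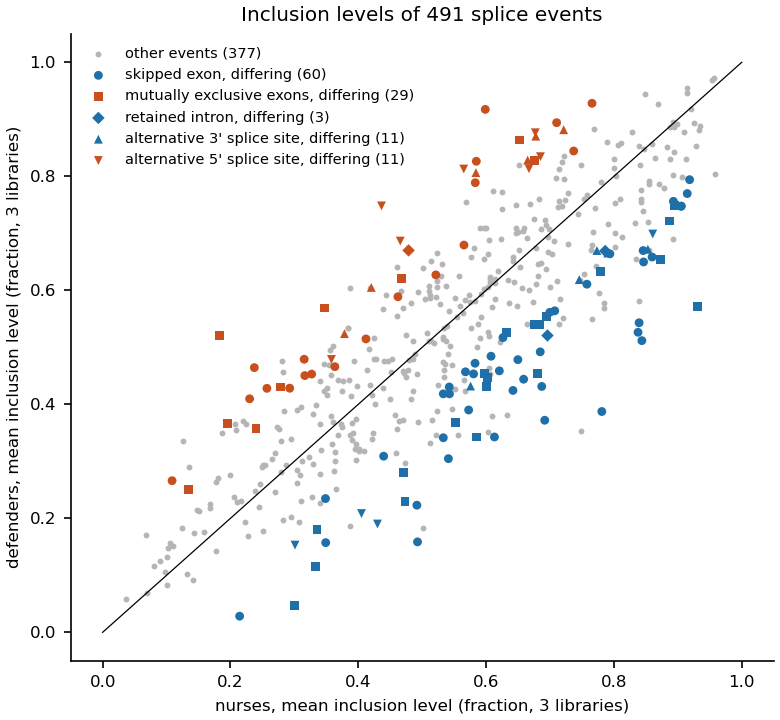
Each point is 1 of 491 splice events, with the mean inclusion level of the 3 nurse libraries on the horizontal and of the 3 defender libraries on the vertical axis, both as fractions. The 114 differing events are coloured, orange above the line of equality and blue below it, and their shape gives the type of event.

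Of 57 events in 20 genes with a symbol, 13 differed, in 6 genes, a share close to that of all events (114 of 491, 23.2%). Of these 13 events, 5 were in TpnI and 4 in TpnT. Genes with a symbol were singled out here after the values were seen. Positions are as in the splice tables, counted from 1, and the chromosome is that of the gene in Amel_HAv3.1, whose gene bounds contained all 491 events. TpnT encodes troponin T. Its skipped exon at chr6:2068303-2068333, 31 bases long, had inclusion levels of 0.883, 0.895 and 0.904 in defenders and 0.660, 0.738 and 0.733 in nurses, and averaged 0.917 in foragers and 0.352 in newly emerged workers. Another TpnT exon, chr6:2072545-2072562, was at 0.455, 0.480 and 0.502 in defenders and 0.348, 0.263 and 0.335 in nurses. The third, chr6:2077168-2077246, was lower in defenders, at 0.510, 0.503 and 0.422, than in nurses, at 0.655, 0.654 and 0.640. In TpnI, the troponin I gene, the exon at chr2:14386005-14386105 was at 0.532, 0.524 and 0.420 in defenders and 0.682, 0.690 and 0.682 in nurses, and averaged 0.481 in foragers and 0.816 in newly emerged workers. A second event on that same exon had levels of 0.482, 0.528 and 0.443 in defenders and 0.607, 0.631 and 0.585 in nurses. Events on 1 exon share reads and are not independent. In each of these events the groups did not overlap, and the defender mean lay nearer the forager mean than the nurse mean.

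The other genes with a symbol had 1 differing event each. Eif4g, a translation initiation factor gene, had a skipped exon at chr6:16285992-16286210 with levels of 0.250, 0.361 and 0.413 in defenders and 0.600, 0.465 and 0.534 in nurses. Syx1A, the syntaxin gene of vesicle release, had one at chr11:16187071-16187181 with 0.593, 0.522 and 0.569 in defenders and 0.697, 0.652 and 0.750 in nurses. GluCl, a glutamate-gated chloride channel gene, had 1 of 5 events that differed, the 36-base exon at chr14:5183103-5183138, at 0.515, 0.524 and 0.512 in defenders and 0.613, 0.646 and 0.620 in nurses. Dscam, a cell adhesion gene with arrays of alternative exons, had 20 events, of which 1 differed.

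The largest differences were in genes with a LOC identifier. A skipped exon of LOC725699 at chr3:8946415-8946581 had levels of 0.400, 0.333 and 0.429 in defenders and 0.724, 0.619 and 1.00 in nurses, a difference of -0.39. One of LOC552157 at chr7:8734017-8734136, 120 bases long, had 0.231, 0.184 and 0.061 in defenders and 0.594, 0.493 and 0.391 in nurses. LOC409843 had 7 differing events of 11. Among them a skipped exon at chr8:12573405-12573525 was at 0.866, 0.901 and 0.985 in defenders and 0.534, 0.556 and 0.706 in nurses, and the exon at chr8:12574268-12574385 at 0.043, 0.035 and 0.007 in defenders and 0.235, 0.275 and 0.133 in nurses. One exon of this gene was thus used more and the next one less in all 3 defender libraries. The pair of exons at chr8:12572119-12572236 and chr8:12574268-12574385 had the largest difference among mutually exclusive exons, with 0.767, 0.672 and 0.276 in defenders and 0.944, 0.959 and 0.890 in nurses. The sources used here do not state which exon of a pair the level refers to. The pair of chr8:12573405-12573525 and chr8:12574268-12574385 was at 0.075, 0.057 and 0.011 in defenders and 0.342, 0.358 and 0.201 in nurses. In this pair the levels lay nearer those of the second exon, as a skipped exon, than those of the first. LOC409821 had 8 differing events of 14, all mutually exclusive exons that share their first or second exon with each other, and all 8 lower in defenders. At an alternative 5' splice site of LOC408343, chr11:3060595-3060651, levels were 0.884, 0.746 and 0.614 in defenders and 0.515, 0.242 and 0.552 in nurses. An alternative 3' splice site of LOC550989, chr16:4895644-4895657, was at 0.788, 0.751 and 0.880 in defenders and 0.447, 0.725 and 0.580 in nurses. A retained intron of LOC410363, chr12:6759667-6761150, was at 0.786, 0.611 and 0.613 in defenders and 0.571, 0.390 and 0.475 in nurses.

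Of the 85 genes with a differing event, 14 (16.5%) were also called in level, which is 1.61% of the 872 called genes, while 43 of all 332 genes with an event (12.95%) were called. Defender and forager libraries did not overlap in 29 of the 114 differing events (25.4%), beside 16.7% of all 491 events, but both comparisons use the same defender libraries, so these shares are not independent.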

How the data were processed

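Raw counts per gene were deposited by the authors in 1 table of 12 libraries. Inclusion levels were deposited by the authors as a fraction between 0 and 1 per splice event, in 5 tables by event type. The aligner, counter, splice caller, genome build and use of strand were not given in the sources used here, because the protocol and processing labels describe chromatin accessibility sequencing in a human cell line and were set aside. Group and library number were taken from sample titles. The titles also carry a Rep number, which repeats within the nurses and within the foragers, so the number after the group name was used. The sources used here do not say which number marks a replicate, and the replicate block rests on this choice.

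Of 12319 genes, 11271 passed filterByExpr. Differences were tested with edgeR 4.0.16 (R 4.3.3): TMM factors, 4 group means over all 12 libraries, a robust quasi-likelihood fit and Benjamini-Hochberg adjustment over all genes tested, with calls at 0.05. DESeq2 1.42.0, other scalings and filters, a replicate block and leaving out each library were alternatives. Code was tested on simulated data. Splice events were compared by overlap of libraries and a difference of at least 0.1. Gene names and neighbours came from RefSeq's Amel_HAv3.1 table, which matched 12167 of 12319 names.

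The genes and lists were chosen with earlier results of these data known. Genes named are, from 5 CPM upward and with libraries that do not overlap, the 12 called symbols and 6 called LOC genes per direction with the largest fold changes, up to 3 called members per direction of each list by adjusted p (or the smallest p), and 10 fixed genes. Of splice events, up to 4 per type with the largest differences qualified. The value of 1 gene that the rule picks is not reported here.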

Additional observations from a re-analysis of the deposited data

How the results depend on the processing

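The number of calls between defenders and nurses moved with the fit. DESeq2 called 1844 genes, 1059 higher and 785 lower in defenders, and the fit on the libraries of the 2 groups alone called 431, with 177 higher and 254 lower, against 872, 522 and 350. Under upper-quartile scaling 579 genes were lower and 404 higher. Between defenders and foragers, where edgeR called 0 genes, DESeq2 called 1306 and the fit on those 2 groups alone 876. A replicate block on library number gave 1466 calls against nurses, 973 of them higher in defenders, and 667 against foragers. The numbers are not shown to pair the libraries: deviations of same-numbered defender and nurse libraries correlated at -0.358, 0.156 and -0.251. With 1 library left out, calls against nurses ranged from 99 to 1428, with 41 to 1012 higher and 58 to 416 lower. Differing splice events ranged from 124 to 162. Leaving out a library makes overlap less likely, so that range is no measure of stability. A minimum difference of 0.2 left 32 splice events. The cause of the shifts in gene calls was not tested. RLE scaling, no filter on low counts, a stricter filter and a fit without the robust option each kept the 3 counts within 1.5 times. Depth limits genes near 0, such as Apd-1 in defenders, and the reads behind each splice level are unknown.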

Other observations

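Calls by gene class were 458 higher and 310 lower in defenders among 9611 protein-coding genes (7.99% called). There were 63 higher and 35 lower among 1540 long non-coding RNAs (6.36%). Of 9 ribosomal RNA genes, 3 were lower in defenders and 0 higher (33.3%), with a median log2 fold change of -0.69. The cause of that shift was not tested. Of 83 microRNA genes, 3 were called (3.61%, beside 7.74% of all genes tested). Counts are per gene, and the sources used here do not tell which form of a microRNA transcript they come from. Mir6037 was higher in defenders, at 12.9, 14.8 and 14.0 CPM, than in nurses, at 8.69, 10.3 and 8.23 CPM (log2 fold change 0.62, adjusted p = 0.0233, lost without defender library 2 or 3 or nurse library 3). Mir6058 and Mir6060 were lower in defenders, with log2 fold changes of -0.71 and -0.89.

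Of called symbols that belong to no list, Glob1, a globin gene, was at 14.5, 13.6 and 14.4 CPM in defenders and 18.5, 21.2 and 23.4 CPM in nurses (log2 fold change -0.57, adjusted p = 0.028), and Ant, the gene of the mitochondrial carrier of ADP and ATP, at 1166, 1123 and 1119 CPM in defenders and 1391, 1429 and 1505 CPM in nurses (log2 fold change -0.34, adjusted p = 0.0319). The groups did not overlap in either, and both were picked after their values were seen.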
